A study of Arabidopsis thaliana with 15 samples.

Results

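Leaves of Arabidopsis thaliana Col-0 that had spent 60 min in high light (HL60) were compared with leaves that had spent 15 min in the same light (HL15), to see which early responses fade during exposure and which keep growing. The 3 HL60 and the 3 HL15 libraries are 6 of the 15 RNA-seq libraries in the series, and a gene was included when its normalised counts summed to 10 or more over all 15 libraries. This left 20512 of the 21593 listed genes. HL60 and HL15 leaves received 1000 µmol photons m-2 s-1, and growth light (GL) leaves, used here as the starting level, remained at 100 in the same unit. All 3 groups were wild-type plants raised for 6 to 7 weeks in short days at growth light, leaf number 7 was sampled, and each group had 3 biological replicates. HL15 and HL60 leaves are different leaves, so the comparison follows populations and not 1 leaf over time. Whole leaves were sampled, and a change in cell type shares and a change in RNA per cell cannot be told apart.

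Excess light drives the photosynthetic electron transport chain faster than carbon fixation can use its products, which gives reactive oxygen species in the chloroplast and warms the leaf. Plants answer within minutes through heat shock transcription factors (HSFs), which switch on chaperone genes, and through stress transcription factors of the DREB, ZAT, ERF and WRKY families. Slower programmes include the unfolded protein response of the endoplasmic reticulum (ER), synthesis of the hormone jasmonic acid (JA), the making of flavonoids as light screens and the loss of light-harvesting antenna transcripts.

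The deposited values are normalised counts. A difference between groups is given as a log2 fold change of the value plus 1, with its standard error (SE) from limma fitted on all genes, and a gene was called when its Benjamini-Hochberg adjusted p was under 0.05 and its change was 2-fold or more. Between HL60 and HL15, 1312 genes were called higher at HL60, which is 6.40% of the genes tested, and 1276 were called lower, which is 6.22%. The estimated depth was 18105869 to 18316314 reads in HL60 libraries and 20237452 to 28102714 reads in HL15 libraries. HL60 replicate 1 stood apart from its group, with 808 and 1020 of 12825 well-expressed genes more than 2-fold away from HL60 replicates 2 and 3, which differed from each other in 131. HL15 replicate 1 also stood apart, with 305 and 320 such genes against 11 between HL15 replicates 2 and 3. Over 8784 genes with 1 transcript, that last pair had a chi-square of 1.52 per degree of freedom, where sampling alone would give up to 1.02 and the other pairs within GL, HL15 and HL60 gave 3.75 to 96.7. HL15 replicates 2 and 3 were kept as 2 libraries. They differed by more than sampling noise, which cannot show whether they come from separate plants. Whether they share plant material was not tested. Counted as 1 library, they gave 1049 genes called higher and 1043 lower. Without HL60 replicate 1, 1849 genes were called higher and 1608 lower.

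Genes were sorted into response classes by 3 comparisons that share libraries, so the classes describe the time course and are not tests of it. A transient rise was a gene called higher at HL15 than in GL and called lower at HL60 than at HL15, and there were 351. A transient fall was the mirror image, with 229 genes. A build-up rise was a gene whose HL60 level was called above both GL and HL15, with 663 genes, and a build-up fall, its mirror image, had 677. At 15 min, 983 genes were called higher than in GL (4.79%) and 956 lower (4.66%), and at 60 min 1592 were called higher (7.76%) and 1599 lower (7.80%). Of the 983 genes called higher after 15 min, 35.7% were called lower again by 60 min, 7.7% were called higher still, and 360 genes remained called above GL with no call between the 2 times. Of the 956 genes called lower after 15 min, 24.0% were called higher again at 60 min and 12.1% were called lower still. Most build-up rises, 570 of 663, and most build-up falls, 550 of 677, were not yet called at 15 min. By 60 min, 278 of the 351 transient rises were not called against GL, whereas 62 were still called above it and 11 were called below it.

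**Figure D1:**
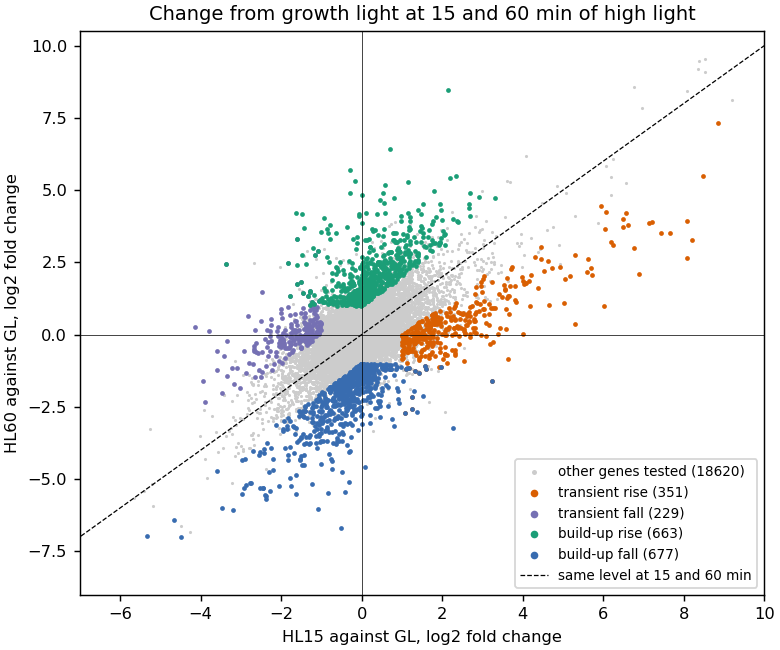
Log2 fold change against GL at 15 min (x axis) and at 60 min (y axis) of high light for the 20512 genes tested, 1 point per gene, with the 4 response classes in colour and the dashed line marking equal change at both times. The 351 transient rises lie right of and below the line, and the 663 build-up rises lie above it with most of them near 0 on the x axis. The 28 genes that belong to a transient and a build-up class are drawn in the build-up colour.

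Among called genes that averaged at least 100 and whose groups did not overlap, HSFA7A (AT3G51910) fell most. It encodes a heat shock transcription factor of class A, and had 8.87, 6.98 and 11.3 normalised counts in the 3 GL libraries, 5834, 1898 and 1781 in HL15 libraries and 38.6, 95.2 and 61.2 in HL60 libraries. HL15 replicate 1 was the highest of all, every HL60 library was far below every HL15 library, and the level at 60 min was still called above GL. The log2 fold change at HL60 against HL15 was -5.45 (SE 0.51, adjusted p = 3.36e-06). Leaving out any 1 of the 6 libraries gave values between -5.77 and -4.89. HSFA2 (AT2G26150), a heat-induced factor known to prolong the heat response, had 794, 2615 and 1592 normalised counts in HL60 and 38233, 22243 and 22258 in HL15 libraries, a log2 fold change of -4.16 (SE 0.46, adjusted p = 1.29e-05). HSFB2A, HSFB2B and HSFB1, class B factors that mostly act as repressors, fell as well, with log2 fold changes of -2.85, -3.18 and -1.62. HSFA4A fell by 1.70 on the log2 scale. The HSFA1 genes, which encode the master factors already present before stress, did not pass the test at HL60 against HL15, with HSFA1A, HSFA1B and HSFA1D between 0.04 and 0.14. HSFC1 was the 1 member called higher, at 1.13, but lost the call without HL15 replicate 1, and 96.7% of its exon bases are overlapped by a gene on the opposite strand. Of the 20 HSF genes tested, 9 were called above GL at 15 min, where 4.79% of all genes tested were, and 6 of those fell afterwards. Thus 30.0% of the list was called lower at HL60 than at HL15, against 6.22% of all genes tested. Among all 983 genes called above GL at 15 min, 35.7% were then called lower.

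The promoters of 3 of these fast genes are shown because each holds a heat shock element, the site that HSFs bind. HSFA7A holds it at 2 places. The element was searched on both strands as 3 alternating GAA and TTC units with 2 bases between neighbours. Promoter sequences came from RefSeq (TAIR10.1) for 20338 of the 20512 genes. The 250 bases before the annotated gene start are given in the direction of transcription, with the element in capitals, for HSFA7A, HSFA2 and DREB2A:
HSFA7A (chr3:19264891-19265140, plus strand): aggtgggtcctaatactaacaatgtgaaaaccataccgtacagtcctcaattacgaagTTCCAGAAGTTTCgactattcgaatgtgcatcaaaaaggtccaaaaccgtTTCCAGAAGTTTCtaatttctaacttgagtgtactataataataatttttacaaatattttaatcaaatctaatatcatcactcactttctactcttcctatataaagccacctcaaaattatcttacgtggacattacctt
HSFA2 (chr2:11135374-11135623, plus strand): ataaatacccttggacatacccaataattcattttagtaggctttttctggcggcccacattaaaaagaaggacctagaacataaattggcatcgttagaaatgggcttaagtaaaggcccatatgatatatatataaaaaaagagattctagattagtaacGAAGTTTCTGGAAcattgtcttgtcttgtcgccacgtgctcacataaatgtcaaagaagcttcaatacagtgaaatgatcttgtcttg
DREB2A (chr5:1601955-1602204, plus strand): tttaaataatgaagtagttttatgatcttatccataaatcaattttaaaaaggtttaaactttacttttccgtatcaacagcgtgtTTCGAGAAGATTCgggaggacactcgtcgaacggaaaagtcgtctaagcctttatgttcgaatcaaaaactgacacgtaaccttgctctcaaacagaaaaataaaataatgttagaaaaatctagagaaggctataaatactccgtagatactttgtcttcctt

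Some chaperone genes, the targets of HSFs, fell as well, while most of those tested were still called above GL in HL60 libraries. BAG6 (AT2G46240), a calmodulin-binding co-chaperone, had 640, 2843 and 2402 normalised counts in HL60 libraries and 74635, 40645 and 40984 in HL15 libraries, against 203, 154 and 151 in GL. Its log2 fold change at HL60 against HL15 was -4.93 (SE 0.43, adjusted p = 2.12e-06), and every HL60 library was below every HL15 library. HSP101, the disaggregase that pulls proteins out of heat aggregates, had 2001, 10719 and 4561 in HL60 and 109773, 55126 and 55137 in HL15 libraries, a log2 fold change of -3.91 (SE 0.44, adjusted p = 1.62e-05). In both genes HL60 replicate 1 had the lowest HL60 value and HL15 replicate 1 the highest HL15 value. Without HL60 replicate 1 the log2 fold changes were -4.25 for BAG6 and -3.31 for HSP101.

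Of 30 genes for HSP60, HSP70, HSP90 and HSP100 chaperones and their cofactors, 12 were called lower at HL60 than at HL15 (40.0%, against 6.22% of all genes tested) and 1 was called higher. All 12 were among the 21 genes of the list called above GL at 15 min, where 4.79% of all genes tested were. Among all 983 genes called above GL at that time, 35.7% were then called lower. At 60 min, 19 of the 30 were called above GL, where 7.76% of all genes tested were. The list median against GL was 2.23 at 15 min and 1.7 at 60 min. Cytosolic HSP90.1 fell by 2.36 on the log2 scale, and its relatives HSP90.2 and HSP90.3 stood at -1.41 and -1.4. The mitochondrial disaggregase CLPB4 was at -2.32 and the coactivator MBF1C at -3.16. HSP90.2 and HSP90.3 share 28.2% and 36.0% of their 31-base exon stretches with another gene, so reads could be divided between them. HSP70 (AT3G12580), the main heat-induced cytosolic HSP70, had 54441, 95023 and 53676 normalised counts in HL60 and 150430, 116263 and 117444 in HL15 libraries. Its log2 fold change was -0.96 (adjusted p = 0.00301), just short of the 2-fold minimum. The chloroplast members CPHSC70-2 and HSP90.5 stood at 0.62 and 0.76 and were not called. Mitochondrial MTHSC70-1 was the 1 chaperone gene that rose, by 1.14. ROF1, at -1.09, lost its call without HL15 replicate 1 or HL60 replicate 1.

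Small heat shock proteins (sHSPs), which hold unfolding proteins until the large chaperones act, were high at both times. The list medians of the log2 fold change against GL were 7.51 at 15 min and 7.58 at 60 min. Against 4.79% and 7.76% of all genes tested, 15 of 16 sHSP genes were called above GL at 15 min and 15 at 60 min. Of these, 4 (25.0% of the list, against 6.22%) were called lower at HL60 than at HL15, namely AT1G59860, AT5G37670, AT1G54050 and AT1G07400. Among all 983 genes called above GL at 15 min, 35.7% were then called lower. The 4 of 15 are therefore not read as a result about the list. AT1G59860 had 350, 1624 and 682 normalised counts in HL60 and 24163, 9524 and 9636 in HL15 libraries (log2 fold change -4.16, SE 0.51, adjusted p = 3.31e-05). AT1G07400 lost its call without HL15 replicate 1, without HL60 replicate 1 and without HL60 replicate 3. HSP17.6C had 6484, 24427 and 10577 in HL60 and 15449, 3364 and 3362 in HL15 libraries, and its log2 fold change of 1.09 (SE 0.80) did not pass the test.

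The spread between replicates was wide in both groups for the sHSPs. Their normalised counts summed to 53970, 179361 and 80458 in HL60 libraries and to 210689, 79695 and 80264 in HL15 libraries, so HL60 replicate 2 and HL15 replicate 1 were each more than 2-fold above the rest of their group. Chloroplast HSP21 had 55.4, 847 and 252 in HL60 and 711, 51.5 and 49.9 in HL15 libraries and was listed at 0 in all GL libraries. HSP22.0, of the ER, had 105, 3638 and 893 in HL60 and 2495, 52.9 and 58.4 in HL15 libraries. For these genes the difference between replicates of 1 group exceeded the difference between the group means, and neither passed the test.

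**Figure D2:**
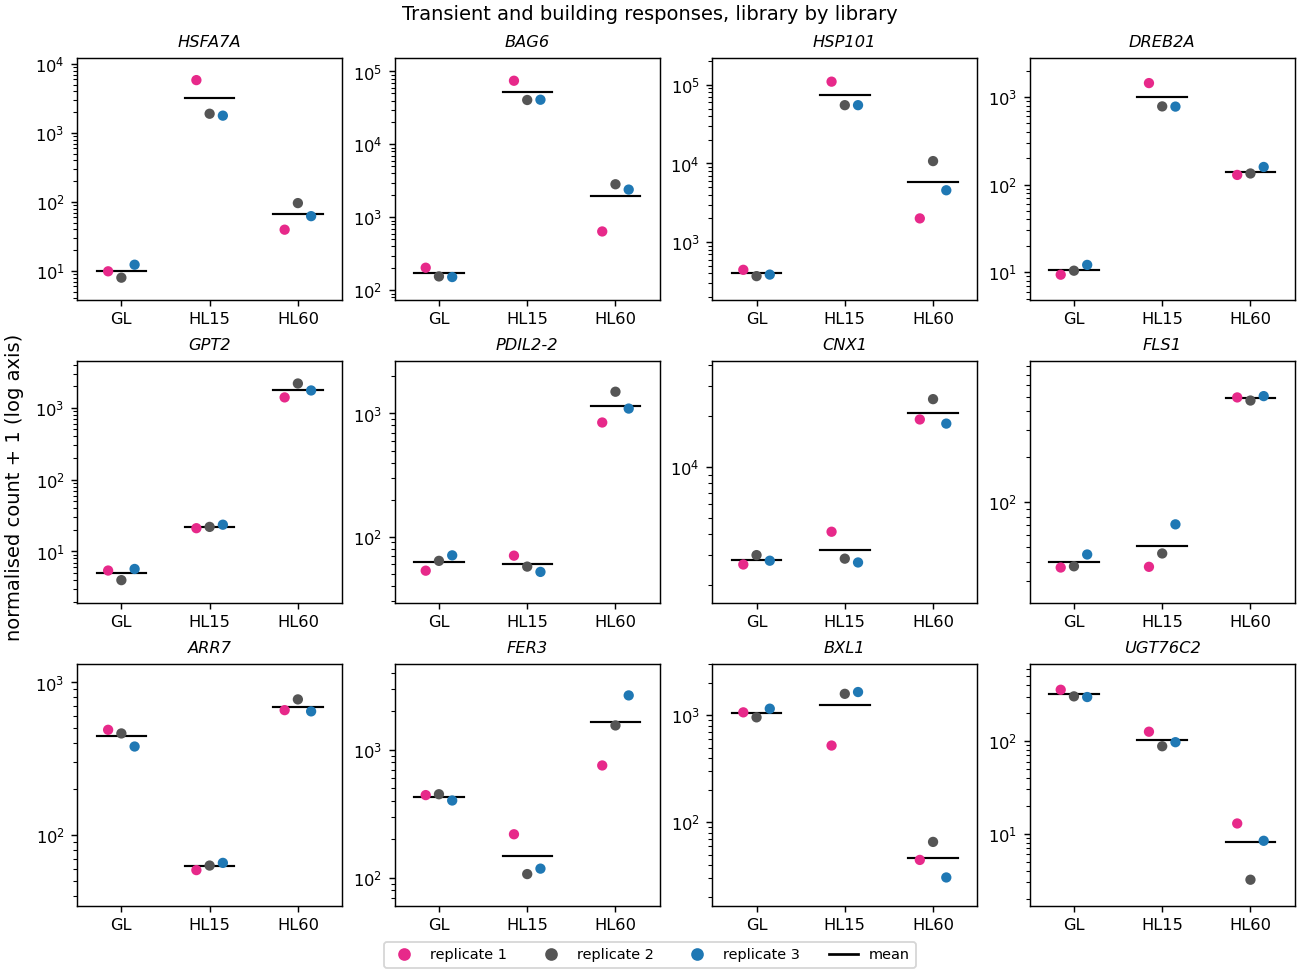
Normalised count plus 1 on a log axis in the 3 libraries of GL, HL15 and HL60 for 12 genes, 1 point per library coloured by replicate number, with black lines for the group means. The top row shows transient rises (HSFA7A with 38.6, 95.2 and 61.2 in HL60 and 5834, 1898 and 1781 in HL15), the middle row build-up rises, ARR7 and FER3 are transient falls, and BXL1 and UGT76C2 are build-up falls.

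Many stress transcription factor genes rose and fell within the hour. Of 34 genes of the ZAT, CCCH, ERF, CBF, DREB and WRKY groups, 18 were called above GL at 15 min, against 4.79% of all genes tested. Of those 18, 10 (29.4% of the list, against 6.22% of all genes tested) were called lower at HL60 than at HL15. Among all 983 genes called above GL at 15 min, 35.7% were then called lower. DREB2A, which activates drought and heat genes, had 8.35, 9.39 and 11.1 normalised counts in GL, 1443, 781 and 777 in HL15 and 128, 133 and 158 in HL60 libraries. The HL60 values were close together and below every HL15 value, with a log2 fold change of -2.77 (SE 0.36, adjusted p = 4.98e-05). WRKY33, a regulator of defence, had 447, 244 and 307 in HL60 and 797, 1835 and 1850 in HL15 libraries (log2 fold change -2.11, SE 0.31, adjusted p = 0.000129). SZF1, ZAT6, ERF104, ERF6 and AZF1 fell too, with log2 fold changes of -2.41, -2.59, -2.98, -2.35 and -2.15. RRTF1 and ERF11 were called lower at -3.75 and -2.32 only with HL60 replicate 1 in the fit, at -1.55 and -1.67 without it, and both also lost the call without HL15 replicate 2 or 3. WRKY53, at -2.03, needed HL15 replicates 2 and 3 and HL60 replicates 2 and 3 for its call. RRTF1 is overlapped over 64.0% of its exon bases by genes on the opposite strand. ZAT10 and ZAT12, classic high light reporters, had log2 fold changes of -1.80 and -1.62 that did not pass the test (adjusted p = 0.0865 and 0.115). ZAT10 had 53.4, 240 and 330 in HL60 and 244, 884 and 849 in HL15 libraries, so that HL15 replicate 1 overlapped the HL60 range.

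Other leading transient genes are annotated in protein turnover and defence. AT1G66090, annotated as a TIR-NBS disease resistance protein, had 24.4, 39.9 and 41.5 normalised counts in GL, 1115, 1564 and 1504 in HL15 and 54.4, 36.1 and 44.3 in HL60 libraries. All HL60 values were back in or near the GL range, and the log2 fold change at HL60 against HL15 was -4.93 (SE 0.40, adjusted p = 9.96e-07). The RING/U-box genes AT1G14200 and AT1G26800, whose class includes ubiquitin ligases, fell, with log2 fold changes of -4.47 and -4.82. AT1G26800 ended below its starting level, with 31.7, 71.1 and 57 in HL60 and 2661, 1087 and 1072 in HL15 libraries, against 159, 143 and 164 in GL. AT5G10695 fell by 5.03, but 78.9% of its exon bases are overlapped by genes on the opposite strand.

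After the values had been seen, families were also taken from the RefSeq product names. Of 69 TIR-NBS genes tested, 25 (36.2%, against 6.22% of all genes tested) were called lower at HL60 than at HL15, with a list median of -0.93, and of 32 cysteine-rich receptor-like kinase genes 14 (43.8%, against 6.22%) were called lower, with a median of -1.05. The TIR-NBS genes included 13 transient rises and 5 build-up falls, classes that held 1.71% and 3.3% of all genes tested. Of 19 cytochrome P450 genes of subfamily 71B, 10 fell (52.6%, against 6.22%) and 1 rose (5.3%, against 6.40%). Since these families were picked for their movement, the counts describe them and support nothing further. The core of the rapid stress response element (RSRE), searched as CGCGTT on both strands, stands in the promoter of AT1G66090, shown here with that core in capitals:
AT1G66090 (chr1:24601783-24602032, plus strand): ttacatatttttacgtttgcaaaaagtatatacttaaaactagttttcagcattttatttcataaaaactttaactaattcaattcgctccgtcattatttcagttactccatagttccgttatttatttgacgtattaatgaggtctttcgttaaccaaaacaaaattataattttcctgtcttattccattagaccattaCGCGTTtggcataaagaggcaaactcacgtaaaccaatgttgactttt

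Some genes dipped at 15 min and came back. ARR7, a type-A response regulator that dampens cytokinin signalling, had 489, 463 and 380 normalised counts in GL, 58.2, 62.4 and 65 in HL15 and 658, 774 and 646 in HL60 libraries. All 3 libraries of each time were close together, and the log2 fold change at HL60 against HL15 was 3.46 (SE 0.14, adjusted p = 5.07e-09), with -2.82 at HL15 against GL. FER3 and FER1, which encode the iron store ferritin, overshot the starting level. FER1 had 3284, 2512 and 3117 in GL, 1178, 735 and 720 in HL15 and 3804, 7349 and 14447 in HL60 libraries, a log2 fold change of 3.11 (SE 0.34, adjusted p = 1.15e-05) between the 2 times. FER3 rose by 3.38 (SE 0.34). FER3 had 754, 1550 and 2661 in HL60 and 218, 106 and 117 in HL15 libraries. In HL60 replicate 1 both ferritins were lower than in the other HL60 libraries, yet above every HL15 library.

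The cell wall genes GER3, a germin, and EXPA10, an expansin, were among the 6 leading transient falls, with log2 fold changes of 4.41 and 3.92 at HL60 against HL15. GER3 had 57.4, 697 and 1125 in HL60 and 58.9, 9.49 and 6.59 in HL15 libraries, and HL60 replicate 1 lay within the HL15 range. AT3G14395, of unknown function, had 214, 213 and 200 in HL60 and 20.1, 18.3 and 20.7 in HL15 libraries, and rose by 3.34.

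Nucleolar ribosome assembly genes rose between the 2 times, and 3 of them had been called below GL at 15 min, where 4.66% of all genes tested were. All 12 tested had log2 fold changes above 0 at HL60 against HL15, 8 (66.7%, against 6.40% of all genes tested) were called higher, and in all 12 the HL60 and HL15 libraries did not overlap, as was the case in 43.8% of all genes tested. NOP56, a core protein of the particles that methylate ribosomal RNA, had 1220, 1445 and 1135 normalised counts in GL, 737, 544 and 560 in HL15 and 1146, 1527 and 1831 in HL60 libraries. NOP56 rose by 1.28 (SE 0.16, adjusted p = 4.48e-05) between the 2 times, after -1.05 at HL15 against GL. The list median was -0.58 at HL15 against GL and 0.50 at HL60 against GL. Calls near the 2-fold minimum, NUC1 at 1.01 and OLI2 at 1.09, were lost when HL15 replicate 3 or HL60 replicate 3 was left out, and NUC1 also without HL15 replicate 2. A set of 308 ribosomal protein genes was chosen by product name after the values were seen. It left out products that name the plastid, chloroplast or mitochondrion, and the location of the remaining proteins was not checked. Of these 308 genes, 72 were called higher (23.4%, against 6.40%). Without HL60 replicate 1 this was 117, in a fit that called 1849 of the 20512 genes tested higher.

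Transcripts of most ER stress genes built up late, and whether the unfolded protein response itself was active was not tested. Of 19 ER stress genes tested, 15 (78.9%, against 6.40%) rose between 15 and 60 min. At 15 min 2 were called above GL, where 4.79% of all genes tested were, and at 60 min 17, where 7.76% were. PDIL2-2 (AT1G04980), a protein disulfide isomerase that forms disulfide bonds in the ER, had 52.1, 62.8 and 69.7 normalised counts in GL, 69.3, 56.3 and 50.9 in HL15 and 844, 1500 and 1095 in HL60 libraries. The HL15 and GL libraries overlapped, and every HL60 value was far above both, with a log2 fold change of 4.23 (SE 0.21, adjusted p = 1.69e-08) against HL15. CNX1, the lectin chaperone calnexin, had 19019, 25065 and 17981 in HL60 and 4140, 2872 and 2727 in HL15 libraries and rose by 2.68 (SE 0.17, adjusted p = 1.83e-07). The ER HSP70s BIP1 and BIP2 rose by 2.19 and 2.82, with 34.7% and 36.2% of their 31-base exon stretches shared with another gene. The ER HSP90, HSP90.7, rose by 1.89, calreticulins CRT1 and CRT1b by 1.97 and 1.93, and the co-chaperones ERDJ3B, SDF2 and P58IPK by 2.03, 1.89 and 1.86.

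BZIP28 and BZIP60, regulators of the unfolded protein response, were not among the 15 ER stress genes called higher at HL60 than at HL15. BZIP28, a membrane-held factor released by ER stress, fell by 1.24 on the log2 scale, with 392, 451 and 477 in HL60 and 1094, 1025 and 1004 in HL15 libraries, against 401, 395 and 405 in GL. BZIP60, the factor whose messenger RNA is spliced by IRE1, had 900, 1000 and 674 in HL60 and 558, 705 and 780 in HL15 libraries, a log2 fold change of 0.33 that did not pass the test. Splice forms were not measured. ERDJ3A was the other member that fell, by 2.39, with 387, 1166 and 749 in HL60 and 6928, 2625 and 2676 in HL15 libraries. Both BZIP28 and ERDJ3A were transient rises, called above GL at 15 min. BIP3, the stress-specific BIP of Arabidopsis, had 7.92, 0 and 6.33 in HL60 and 1.49, 8.13 and 6.59 in HL15 libraries and was barely detected. PDIL1-1 and AT5G07340, at 1.01 and 1.05, lost their calls without HL60 replicate 2, and PDIL1-1 also without HL15 replicate 3. The rise was as large without HL60 replicate 1, with 15 of 19 called and a list median of 1.99 against 1.89. That fit called 1849 of the 20512 genes tested higher.

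An ER stress response element, CCAAT and CCACG with 9 bases between them on either strand, was searched after the values had been seen. Its CCACG part shares letters with the G-box, CACGTG. It was found in the promoters of 26.3% of the ER list and of 0.492% of all genes tested. The 250 bases before the gene start of 3 of the holders are shown with the element in capitals, for HSP90.7, P58IPK and PDIL1-2:
HSP90.7 (chr4:12556059-12556308, minus strand): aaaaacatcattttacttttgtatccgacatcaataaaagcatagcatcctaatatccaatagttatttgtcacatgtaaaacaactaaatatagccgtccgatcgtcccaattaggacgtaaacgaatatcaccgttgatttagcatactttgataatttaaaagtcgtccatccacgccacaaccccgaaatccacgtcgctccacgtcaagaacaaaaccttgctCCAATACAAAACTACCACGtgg
P58IPK (chr5:749851-750100, plus strand): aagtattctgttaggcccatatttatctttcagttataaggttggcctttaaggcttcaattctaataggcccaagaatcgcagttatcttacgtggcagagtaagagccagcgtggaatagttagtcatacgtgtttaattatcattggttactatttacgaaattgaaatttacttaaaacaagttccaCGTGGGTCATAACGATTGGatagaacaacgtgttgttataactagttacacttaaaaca
PDIL1-2 (chr1:29126398-29126647, plus strand): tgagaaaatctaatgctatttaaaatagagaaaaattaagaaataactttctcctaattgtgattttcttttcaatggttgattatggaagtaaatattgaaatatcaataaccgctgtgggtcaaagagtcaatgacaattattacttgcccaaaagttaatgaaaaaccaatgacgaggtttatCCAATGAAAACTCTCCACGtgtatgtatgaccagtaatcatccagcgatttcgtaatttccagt

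GPT2 (AT1G61800) had the highest log2 fold change of all genes tested. It encodes the glucose 6-phosphate/phosphate translocator of the plastid envelope, which is known for its part in acclimation to higher light. GPT2 had 4.43, 2.99 and 4.71 normalised counts in GL, 20.1, 21 and 22.6 in HL15 and 1396, 2181 and 1744 in HL60 libraries. The libraries of each time were close together, a first step was called at 15 min (2.16 against GL), and the log2 fold change at HL60 against HL15 was 6.30 (SE 0.30, adjusted p = 1.69e-08). Leaving out any 1 library gave 6.13 to 6.46. BAM5, a cytosolic beta-amylase, had 2739, 17110 and 18062 in HL60 and 265, 279 and 235 in HL15 libraries, and rose by 5.19 (SE 0.51, adjusted p = 4.76e-06). ProT3, a proline transporter, had 487, 1568 and 2709 in HL60 and 77.7, 68.9 and 65.1 in HL15 libraries (log2 fold change 4.16, SE 0.41). In BAM5 and ProT3, HL60 replicate 1 was well below HL60 replicates 2 and 3 and above every HL15 library.

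Other leading rises were far higher in HL60 replicates 2 and 3 than in replicate 1. AT2G30830, a 2-oxoglutarate dependent oxygenase, had 101, 867 and 1398 in HL60 and 2.24, 12.9 and 17.9 in HL15 libraries, and TPS03, a terpene synthase, had 44.6, 176 and 526 in HL60 and 0.985, 11.4 and 11.5 in HL15 libraries. RAP2.6, an ERF transcription factor, had 2.97, 270 and 666 in HL60 and 0, 2.03 and 0.942 in HL15 libraries, so that HL60 replicate 1 was barely above HL15. ILL5, an amidohydrolase of the family that frees auxin and JA from their conjugates, had 2.97, 169 and 648 in HL60 and 0, 0 and 3.77 in HL15 libraries. The 10 largest rises also held ATCSLA15, AT5G62360 and AT3G61920, with log2 fold changes of 4.18, 4.81 and 4.98.

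Genes that plants switch on in darkness and starvation were lower at 60 min, and part of them were called below GL already at 15 min. Of 17 sugar and starvation response genes, 8 (47.1%, against 6.22%) fell between 15 and 60 min and 2, GPT2 and the nitrate reductase gene NIA1, rose. Against GL, 9 were called lower at 15 min, where 4.66% of all genes tested were, and 11 at 60 min, where 7.80% were. The list medians against GL were -1.55 and -2.45. ASN1, the dark-inducible asparagine synthetase, had 132, 172 and 118 normalised counts in GL, 87.6, 96.6 and 58.6 in HL15 and 12.9, 4.25 and 6.15 in HL60 libraries, a log2 fold change of -3.31 (SE 0.40, adjusted p = 2.67e-05) between the 2 times. The HL60 values were a few counts, and the groups did not overlap. The trehalose phosphate synthase genes TPS8, TPS9 and TPS11 fell, with log2 fold changes of -1.39, -2.24 and -2.79, as did DIN10, a raffinose synthase gene, at -2.40 and the F-box genes KMD1 and KMD4 at -2.90 and -2.1. All exon bases of KMD4 are overlapped by genes on the opposite strand. SEN1 was called lower at -3.03 but had 110, 7.75 and 5.79 in HL60 and 64.6, 207 and 260 in HL15 libraries, an overlap through replicate 1 of HL60, and lost the call without any 1 of HL15 replicates 2 and 3 or HL60 replicates 2 and 3. KMD3 was listed at 0 in all 6 high light libraries, with 33.3, 63.8 and 33.9 in GL.

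Cell wall and cytokinin genes were among the other leading falls. BXL1, a beta-xylosidase of the cell wall, had 43.5, 64.6 and 29.5 in HL60 and 522, 1592 and 1655 in HL15 libraries, against 1068, 959 and 1156 in GL, with a log2 fold change of -4.64 (SE 0.40, adjusted p = 1.65e-06) between the 2 times. HL15 replicate 1 was the lowest HL15 library and still above all HL60 libraries. UGT76C2, which inactivates cytokinins by adding glucose, had 11.9, 2.19 and 7.39 in HL60 and 125, 86.8 and 96.1 in HL15 libraries, against 356, 302 and 297 in GL (log2 fold change -3.87, SE 0.39). AT3G55240, of unknown function, fell by 3.77. EXPA8, an expansin, had 91, 31.7 and 20 in HL60 and 680, 290 and 310 in HL15 libraries and fell by 3.31, the 1 fall among 19 expansin and auxin response genes (5.3%, near the 6.22% of all genes tested). In that list 4 rose (21.1%, against 6.40%). AT1G17990 fell by 4.65, but 78.8% of its 31-base exon stretches also occur in AT1G18020, so its counts may hold reads of both.

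Light-harvesting antenna genes fell late. Of 20 tested, 8 (40.0%, against 6.22%) fell between 15 and 60 min. The same number was called below GL at 60 min, where 7.80% of all genes tested were. The list median against GL was -0.17 at 15 min and -0.83 at 60 min. LHCB4.2, a minor antenna protein of photosystem II, had 83056, 80911 and 85917 normalised counts in GL, 65726, 64161 and 63970 in HL15 and 11620, 15901 and 14109 in HL60 libraries. The groups did not overlap, and the log2 fold change at HL60 against HL15 was -2.23 (SE 0.13, adjusted p = 9.18e-08). LHCB2.1, LHCB2.2 and LHCB2.3, of the main antenna, fell with log2 fold changes of -1.48, -1.81 and -1.94, and LHCB1.1, LHCB1.4 and LHCB1.5 with -1.53, -1.78 and -1.07. These copies share up to 40.4% of their 31-base exon stretches with each other, and all of LHCB1.5 is overlapped on the opposite strand. LHCB1.5 and LHCA4, at -1.07 and -1.0, were not called without HL60 replicate 1, at -0.94 and -0.90, and LHCA4 not without HL15 replicate 1. LHCB4.3, known to be higher in strong light, had 519, 1403 and 891 in HL60 and 463, 605 and 546 in HL15 libraries and passed the test only without HL60 replicate 1, at 1.06 against 0.69.

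Of 22 photoprotection and photosystem II repair genes, 4 rose between 15 and 60 min, where 6.40% of all genes tested rose. BCH1 and BCH2, the beta-carotene hydroxylases of the xanthophyll pathway, rose by 2.12 and 1.71, and BCH1 had 4732, 4027 and 3533 in HL60 and 914, 895 and 1004 in HL15 libraries. The early light-induced protein genes were low and rose, with ELIP1 at 308, 482 and 422 in HL60 and 218, 131 and 117 in HL15 libraries and ELIP2 at 77.2, 46 and 39 in HL60 and 2.24, 1.36 and 3.77 in HL15 libraries. FTSH1, FTSH5 and FTSH8, subunits of the protease that removes damaged D1 protein, had log2 fold changes of 0.83, 0.85 and 0.66 with adjusted p of 0.000691, 0.000122 and 0.00152, below the 2-fold minimum. SIG5, a plastid sigma factor called above GL at both times, stood at -0.01. PSBS, which triggers the quick dissipation of light as heat, stood at 0.30.

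Of 19 phenylpropanoid, flavonol and anthocyanin genes, 11 (57.9%, against 6.40%) rose between 15 and 60 min, with a list median of 1.25. At 15 min, 3 of the 19 had been called above GL, where 4.79% of all genes tested were, and 4 below it, where 4.66% were. FLS1, flavonol synthase, had 35.7, 36.4 and 43.8 normalised counts in GL, 36.1, 44.5 and 70 in HL15 and 493, 470 and 503 in HL60 libraries and rose by 3.31 between the 2 times (SE 0.23, adjusted p = 3.61e-07). MYB111, which switches on flavonol genes, had 35.6, 43.8 and 47.5 in HL60 and 0, 0 and 1.88 in HL15 libraries (adjusted p = 7.19e-06). PAL1, the entry enzyme of the phenylpropanoid pathway, and CHS, chalcone synthase, dipped first. PAL1 had 1982, 1827 and 1636 in GL, 896, 657 and 708 in HL15 and 3194, 3667 and 4238 in HL60 libraries and rose by 2.3. CHS had 1214, 1143 and 614 in GL, 285, 184 and 151 in HL15 and 412, 1703 and 2409 in HL60 libraries and rose by 2.57, without a call between HL60 and GL. DFR, which leads from flavonoids to anthocyanins, was listed at 0 in all 6 libraries. PAP1, a MYB activator of anthocyanin genes, rose by 1.4, though not without HL15 replicate 1 or HL60 replicates 2 or 3. F3H rose by 2.44, with 93.8% of its exon bases overlapped by a gene on the opposite strand.

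Of 24 light signalling genes, 3 rose (12.5%, against 6.40%) and 2 fell (8.3%, against 6.22%), with a list median of -0.08, which is not read as a result about the list. HYH, RUP1 and RUP2 rose by 1.26, 2.08 and 1.25, and PIF1 and PIF4, which hold back light responses, fell, at -2.19 and -1.70. PIF1 had 628, 584 and 639 normalised counts in GL, 256, 271 and 232 in HL15 and 81.2, 47.3 and 42.6 in HL60 libraries. Of 12 day and evening clock genes, 5 rose (41.7%, against 6.40%) and 1, CHE, fell (8.3%, against 6.22%). PRR5, a repressor in the clock, had 55.4, 82.1 and 128 in HL60 and 6.71, 6.78 and 0.942 in HL15 libraries (log2 fold change 4.11, SE 0.57, adjusted p = 8.79e-05), and GI, a clock output scaffold, had 3241, 2381 and 2662 in HL60 and 927, 1169 and 1149 in HL15 libraries and rose by 1.35. LUX and CHE lost their calls without HL60 replicate 3, and CHE also without HL15 replicate 1. The 10 morning clock genes gave no call in limma (2 higher and 4 lower at an unadjusted p under 0.05). HL60 leaves were harvested after a longer exposure, the clock time of harvest is not given in the sources used here, and time in high light and time of day cannot be told apart.

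The evening element, searched as AAAATATCT on both strands, is a site through which evening clock genes and cold genes are timed. It stands in the promoters of PRR5 and of GPT2, and the G-box, CACGTG, bound by bZIP and bHLH factors, in that of COR15A, a cold and drought gene described with the abscisic acid genes. They are shown with these elements in capitals:
PRR5 (chr5:8358547-8358796, minus strand): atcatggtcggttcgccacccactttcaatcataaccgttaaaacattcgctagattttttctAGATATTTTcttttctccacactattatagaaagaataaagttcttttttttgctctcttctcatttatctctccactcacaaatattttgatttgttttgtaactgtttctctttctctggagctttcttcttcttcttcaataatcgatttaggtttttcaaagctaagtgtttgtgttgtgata
GPT2 (chr1:22824164-22824413, plus strand): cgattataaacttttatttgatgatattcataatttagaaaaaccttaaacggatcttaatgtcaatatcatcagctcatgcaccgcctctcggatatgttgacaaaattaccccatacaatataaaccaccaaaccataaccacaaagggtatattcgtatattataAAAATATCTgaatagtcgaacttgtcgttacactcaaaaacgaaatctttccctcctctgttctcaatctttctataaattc
COR15A (chr2:17712331-17712580, minus strand): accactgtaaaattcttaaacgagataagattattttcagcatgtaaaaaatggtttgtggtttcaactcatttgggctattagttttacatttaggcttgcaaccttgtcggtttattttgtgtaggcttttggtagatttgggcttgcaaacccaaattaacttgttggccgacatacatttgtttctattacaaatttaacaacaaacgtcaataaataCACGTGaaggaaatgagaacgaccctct

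JA genes divided the HL60 libraries. Of 50 JA synthesis, turnover and output genes, 43 were above every HL15 library in HL60 replicate 2 and 45 in HL60 replicate 3. In HL60 replicate 1 only 4 were, and 31 were below every HL15 library. These positions were not counted over all genes. The list's median log2 difference from the HL15 mean was -0.82, 1.51 and 1.98 in HL60 replicates 1, 2 and 3. Over all genes tested it was 0.0 in each. OPR3, which reduces the JA precursor 12-oxo-phytodienoic acid, had 769, 578 and 834 normalised counts in GL, 1075, 4650 and 4569 in HL15 and 1293, 19129 and 28075 in HL60 libraries. Its log2 fold change at HL60 against HL15 was 1.64 with an SE of 0.85 and did not pass the test (adjusted p = 0.149). Without HL60 replicate 1 it was 3.03 (adjusted p = 0.000156). LOX3, a lipoxygenase at the start of the pathway, had 1547, 15454 and 35605 in HL60 and 1519, 4327 and 4315 in HL15 libraries, and HL15 replicate 1 was lower than the other HL15 libraries as well. Of the 50 genes, 10 were called higher at HL60 than at HL15, where 6.40% of all genes tested were. Without HL60 replicate 1, 33 were, in a fit that called 1849 of the 20512 genes tested higher. Against GL, 8 were called higher at 15 min, where 4.79% of all genes tested were, and 29 at 60 min, where 7.76% were. The list medians against GL were 0.63 and 2.19. By library, the median difference from the GL mean was -0.03, 3.06 and 3.55 in HL60 replicates 1, 2 and 3.

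The called JA genes were ACX1 and JAR1 of synthesis, JAZ9, IAR3, CYP94B1 and JRG21 of repression and turnover, and ADC2, VSP1, TPS04 and CLH1 of output. VSP1, vegetative storage protein 1, had 185, 7921 and 11926 in HL60 and 122, 186 and 190 in HL15 libraries (log2 fold change 3.99, SE 1.1, adjusted p = 0.0116), and its HL60 replicate 1 lay within the HL15 range. ADC2, arginine decarboxylase of polyamine synthesis, had 3788, 14379 and 24579 in HL60 and 1299, 1979 and 1899 in HL15 libraries, did not overlap and rose by 2.70 (SE 0.45, adjusted p = 0.00037). JAR1, which joins JA to isoleucine, had 2808, 9403 and 14792 in HL60 and 2265, 2370 and 2412 in HL15 libraries and rose by 1.64. ACX1, JAR1, JRG21 and ADC2 stayed called whichever HL60 or HL15 library was left out. JAZ9, IAR3, CYP94B1, VSP1, TPS04 and CLH1 lost the call without HL60 replicate 2 or 3. JAZ9, IAR3, CYP94B1, TPS04 and CLH1 also lost it without HL15 replicate 1, IAR3 without HL15 replicate 3, and TPS04 and CLH1 without HL15 replicate 2 or 3.

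Single JA genes showed the same dependence on libraries. JAZ1, a repressor of JA signalling, had 101, 1679 and 2674 in HL60 and 695, 2052 and 1953 in HL15 libraries, and MYC2, the factor it represses, had 2384, 8071 and 10304 in HL60 and 2620, 6284 and 6257 in HL15 libraries. MYC2 is overlapped over 98.5% of its exon bases on the opposite strand. Their log2 fold changes, -0.87 and 0.31, did not pass the test, and both genes were already called above GL at 15 min (3.92 and 2.6). CYP94B3, which inactivates JA, and JAZ10 were not called at 15 min. JAZ10 had 11.8, 694 and 1139 in HL60 and 12.2, 77 and 76.9 in HL15 libraries, and CYP94B3 had 2.97, 476 and 1083 in HL60 and 22.4, 10.8 and 15.1 in HL15 libraries. In GL libraries JAZ10 had 31.6, 18.4 and 42.4, below HL15 replicates 2 and 3 and above HL15 replicate 1. Without HL60 replicate 1 both genes were called higher at 4.37 and 5.45. The number of JA genes called higher at HL60 than at HL15 thus depended on HL60 replicate 1, and why that library differed was not tested.

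**Figure D3:**
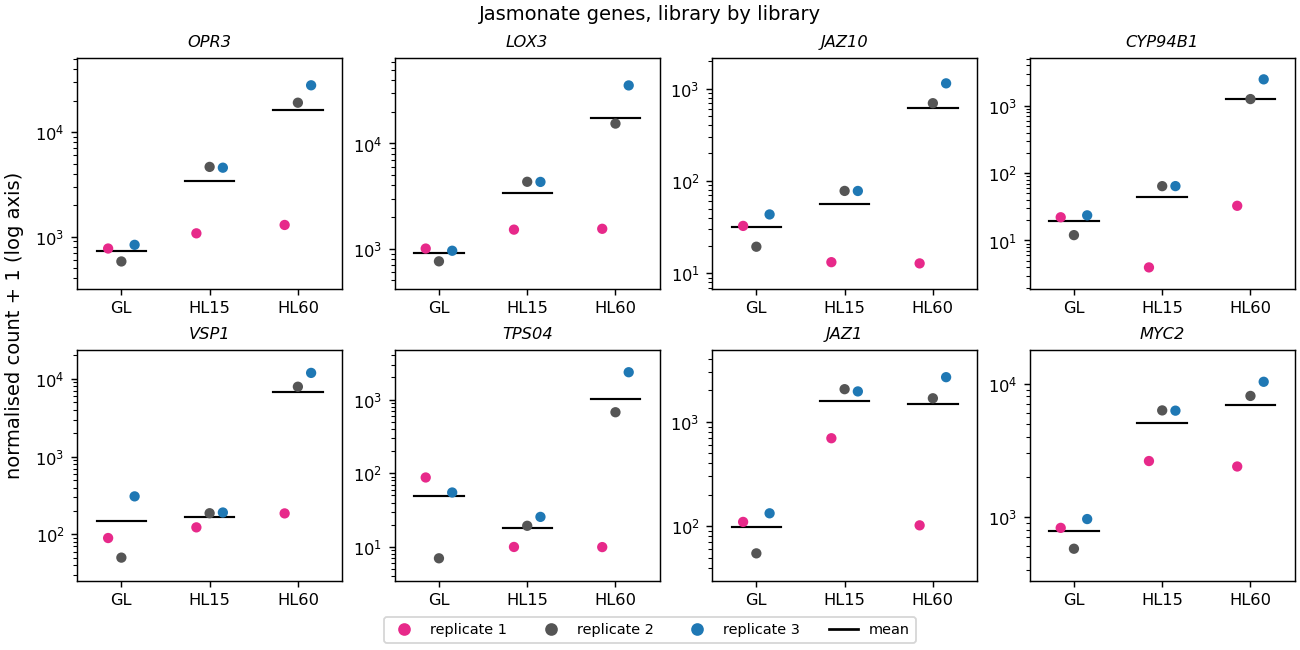
Normalised count plus 1 on a log axis for 8 jasmonate genes in the 3 libraries of GL, HL15 and HL60, 1 point per library coloured by replicate number, with black lines for the group means. HL60 replicate 1 lies below HL60 replicates 2 and 3 in each panel, and HL15 replicate 1 below the other HL15 libraries, for instance OPR3 with 1293, 19129 and 28075 in HL60 libraries and 1075, 4650 and 4569 in HL15 libraries.

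Genes of abscisic acid (ABA) turnover and response rose in 8 of 20 cases (40.0%, against 6.40%). The cold and drought genes COR15A and COR15B, which encode proteins that protect chloroplast membranes, were among them. COR15B had 3538, 3686 and 4574 in HL60 and 491, 432 and 514 in HL15 libraries, did not overlap and rose by 3.03 (SE 0.14, adjusted p = 1.19e-08), and COR15A rose by 2.13. RD29A, KIN1 and RD20 rose by 1.54, 2.56 and 2.48. HAI1, a protein phosphatase of ABA signalling, rose by 1.55, and CYP707A2, an enzyme that breaks ABA down, by 2.12. Its relative CYP707A4, at 1.04, kept its call only with all 3 HL60 libraries and HL15 replicates 2 and 3. NCED3, the stress-regulated step of ABA synthesis, stood at -0.03, and RAB18 at -0.14, neither passing the test.

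Of 28 genes for enzymes that remove reactive oxygen species or that make or recycle ascorbate, 6 rose (21.4%, against 6.40%). APX1, cytosolic ascorbate peroxidase, had 26905, 43448 and 41082 normalised counts in HL60 and 15971, 11500 and 11454 in HL15 libraries and rose by 1.5 (SE 0.18, adjusted p = 2.67e-05). GPX7 rose by 1.97 with HL60 values close together at 2212, 2143 and 2077, against 517, 562 and 567 in HL15 libraries. DHAR1, which recycles ascorbate, rose by 1.74. GPX6 was not called without HL60 replicate 1, at 0.94 against 1.18, and CSD2 and VTC5 lost their calls without HL60 replicate 2 or 3, CSD2 also without HL15 replicate 2 or 3 and VTC5 without HL15 replicate 1 or 3. Of 26 glutathione genes, a list the study took from published work, 4 rose, against 6.40% of all genes tested, and 2 fell (7.7%, near the 6.22% of all genes tested). OPT4, an oligopeptide transporter, fell by 2.69, with 30.7, 33.9 and 28.5 in HL60 and 192, 220 and 203 in HL15 libraries. GGT1, which degrades glutathione in the apoplast, fell by 1.5.

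**Figure D4:**
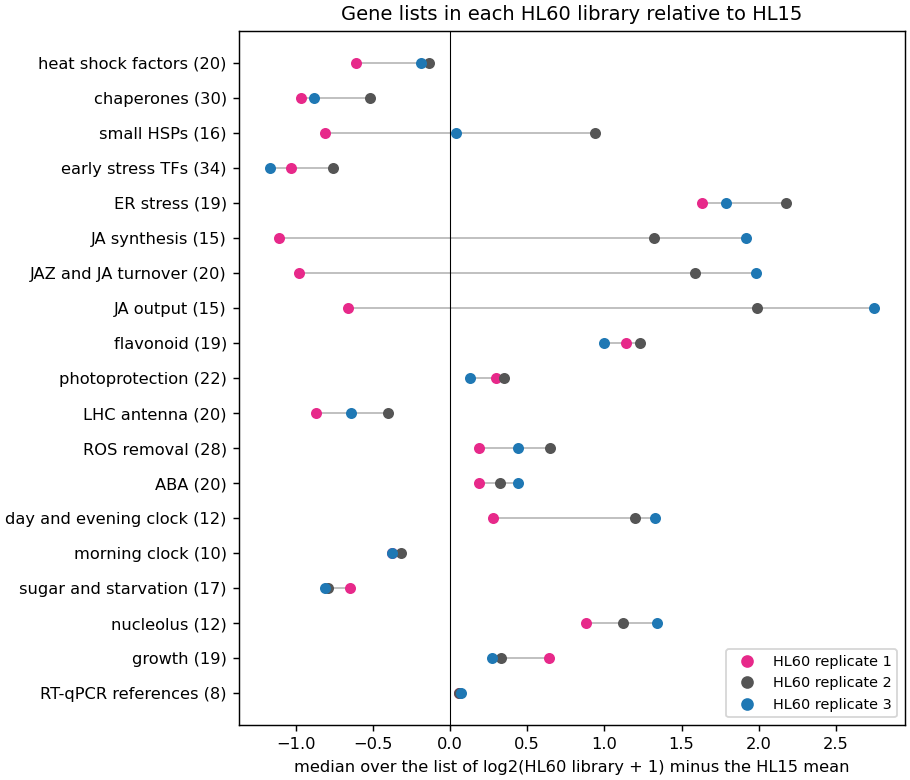
Median over each gene list, with the number of genes tested in brackets, of log2(value plus 1) in 1 HL60 library minus the mean of the HL15 libraries, 1 point per HL60 library. ER stress genes lie at 1.63, 2.18 and 1.79 in HL60 replicates 1, 2 and 3, and JA synthesis genes at -1.11, 1.32 and 1.92, so that replicate 1 falls on the other side of 0 for the JA lists and the small HSPs.

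Marker genes of other cell types were read beside these results. The 5 mesophyll markers, including RBCS1A and RCA, were abundant and summed to 997831 to 1238476 normalised counts in HL60 and 1071624 to 1214104 in HL15 libraries. The 5 guard cell markers summed to 580 to 993 in HL60 and 530 to 647 in HL15 libraries, the 4 phloem markers to 4701 to 5437 in HL60 and 6523 to 6901 in HL15 libraries, and the 3 epidermis markers to 3844 to 8786 in HL60 and 5197 to 6193 in HL15 libraries. Of the 3 root markers, PYK10 had 1.98, 0 and 0 in HL60 and 0, 0 and 0.942 in HL15 libraries and CASP2 had 3.96, 1.09 and 3.17 in HL60 and 0, 1.36 and 0.942 in HL15 libraries, whereas SCR, also known from the leaf bundle sheath, had 840, 652 and 650 in HL60 and 585, 707 and 751 in HL15 libraries. None of these markers was called between HL60 and HL15 in limma (2 higher and 3 lower at an unadjusted p under 0.05), and none of the 8 genes used as RT-qPCR references was called (2 higher and 1 lower). Against GL, 2 of the 5 guard cell markers were called lower at HL15, where 4.66% of all genes tested were. These were FAMA and MYB60 (-1.04 and -1.27). The list median was -0.87, in a comparison that the response classes use. Without HL60 replicate 1, FAMA was called higher at HL60 than at HL15 (1.11). The list median of the phloem markers at HL60 against HL15 was -0.34, and the part of such shifts in the results was not tested.

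What the classes share in their promoters was described over 250 bases before and 50 after the gene start, with no test. The heat shock element of HSFA7A, HSFA2 and DREB2A was held by 3.99% of transient rises, against 0.546% of all genes tested and 0.452% of build-up rises. The RSRE core was held by 9.97% of transient rises and 3.81% of all genes, and the W-box, TTGACC or else TTGACT, which WRKY factors bind, by 41.3% and 32.4%. The G-box was held by 19.2% of build-up rises and 8.81% of all genes, and by 52.6% of the ER list and 36.8% of the flavonoid list. Lists with many falling genes also held it more often than all genes, with 20% of the antenna list and 16.7% of the chaperone list. In the stress transcription factor list the share was higher than in either of these. The sugar and starvation list, at 5.88%, and the sHSP list, at 6.25%, were below all genes. The evening element of PRR5 and GPT2 was held by 5.58% of build-up rises, 4.56% of transient rises and 2.99% of all genes. Transient falls held the W-box in 23.1% of cases and the G-box in 8.30%. A match is a run of letters in a window and not a bound site.

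**Figure D5:**
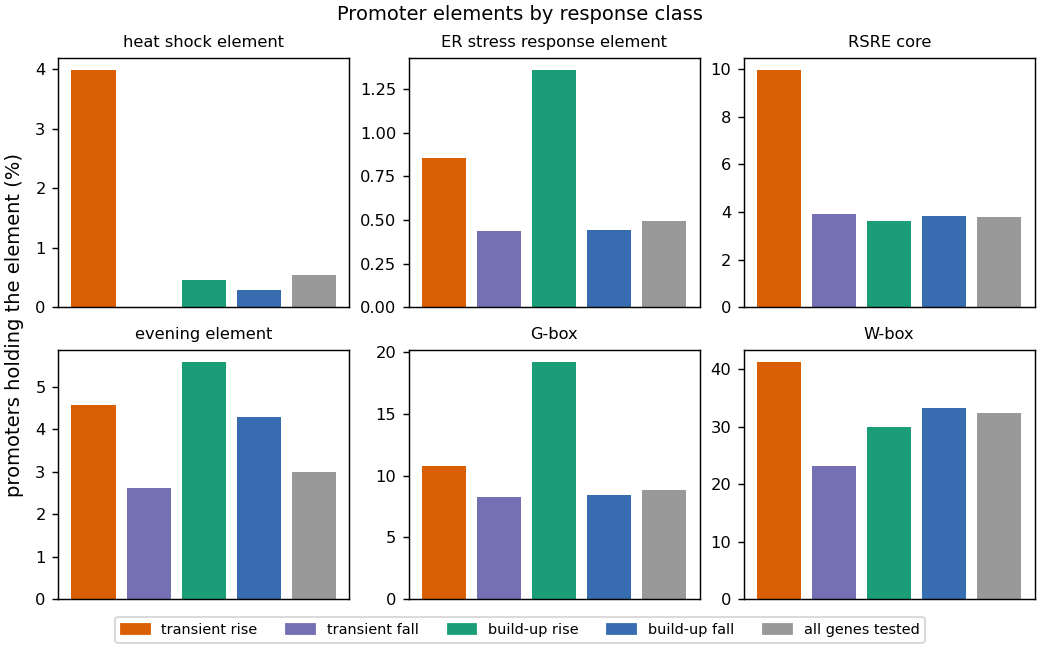
Percentage of promoters, from 250 bases before to 50 after the gene start on either strand, that hold each of 6 elements, with 1 bar per response class and a grey bar for all genes tested. The heat shock element (3.99%) and the RSRE core (9.97%) stand highest in transient rises, and the G-box (19.2%) and the evening element (5.58%) in build-up rises.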

How the data were processed

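RNA of leaf number 7 was sequenced in 3 libraries each of HL60, HL15 and GL and of 2 recovery conditions. The deposited file is 1 table of normalised counts per gene, a signal that the authors made with Salmon 0.12 on TAIR cDNA sequences (TAIR10) and DESeq2. Each library was scaled to a common size, and genes that have more than 1 transcript were also adjusted for transcript length. Whole reads came out for 60.0% to 63.4% of low values (up to 200, within 0.01 of a read), so no count test was run and the study's DESeq2 test could not be repeated. The strand setting is not given in the sources used here. Whether each replicate was 1 plant or a pool is not given in the sources used here. The p-values measure the spread within conditions, pooled over all 15 libraries. That spread was not equal, with a median standard deviation of log2 values per gene of 0.097 in GL, 0.12 in HL15 and 0.189 in HL60.

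Genes with a sum of 10 or more (20512, with 1081 left out) were fitted as log2(value + 1) in R 4.3.3 (limma 3.58.1). The fit took the 15 libraries together, with 1 coefficient per condition, a variance trend and Benjamini-Hochberg adjustment over all genes. The log2 scale with 1 added understates changes of low genes. A permutation of 3 against 3 libraries cannot give an exact two-sided p under 0.1. In simulated data for HL60 against HL15 with 19650 genes, all 200 changed genes were recovered, with 3 false calls. The changes had median log2 values of 2.01 and -2 and were placed only in genes with higher counts. Every simulated library had the same spread and none stood apart, so the simulation cannot give the error rate of the calls in these data. Tables and figures were made with Python 3.11.15, pandas 2.3.3 and numpy 2.4.6. The comparison and the gene lists were chosen with earlier results of these data known. Of 439 list entries written, 432 matched RefSeq by locus and name. Named were the 10 largest rises and 10 largest falls (adjusted p under 0.05, mean of 100 or more, no overlap), the 6 largest changes of each class with a mean of 100 or more, and list members. The 4 RefSeq families, the ER stress response element, the fit without replicate 1 of both times and the fit with HL15 replicates 2 and 3 as 1 were added after the data were seen. The other alternatives were the pseudocount, filter, scaling, fold minimum, the set of libraries and the replicate block. Promoters, shared 31-base stretches and overlapping genes came from RefSeq (TAIR10.1).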

Additional observations from a re-analysis of the deposited data

Results flagged for a closer look

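Between 15 and 60 min, 28 genes crossed the GL level, with opposite calls against GL at the 2 times and a called difference between HL60 and HL15 in limma. Of these, 17 were lower than GL at HL15 and higher at HL60, and 11 went the other way. Among those with a mean of 100 or more, the largest upward differences at HL60 against HL15 were the ferritin genes FER3 (log2 fold change 3.38) and FER1 (3.11) and AT3G14395 (3.34). The largest downward ones were AT1G26800 (-4.82), AT4G14270 (-3.76) and AT3G62550 (-3.43). Without HL60 replicate 1 these 6 values were 3.85, 3.59, 3.33, -4.50, -3.73 and -3.81, and each kept its call. PAL1, MYB111 and ELIP2 also crossed GL upward, and TET8, WAKL6 and CRK5 crossed it downward.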

How the results depend on the processing

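The lists and classes rest on 3 libraries a side, and HL60 replicate 1 set much of the spread. Leaving out 1 HL60 or HL15 library at a time gave 2112 to 3457 called genes, 1045 to 1849 higher and 1038 to 1608 lower. The class counts then ran from 233 (without HL15 replicate 2) to 414 transient rises, 171 to 360 (without HL15 replicate 1) transient falls, 536 to 999 (without HL60 replicate 1) build-up rises and 596 to 899 build-up falls. Without replicate 1 of both times, chosen after seeing the data, 3716 genes were called, 1978 higher and 1738 lower, with 492 transient rises, 447 transient falls, 959 build-up rises and 908 build-up falls. With HL15 replicates 2 and 3 as 1 library, tried because no other pair was as alike, 2092 genes were called, 1049 higher and 1043 lower, with 233 transient rises, 156 transient falls, 593 build-up rises and 607 build-up falls. A test against 1.5-fold (limma treat) called 1336 genes, 652 higher and 684 lower, with 130 transient rises, 54 transient falls, 349 build-up rises and 399 build-up falls, and adjusted p alone called 7314, 3755 higher and 3559 lower, with 820, 1028, 2206 and 2246 in the same classes. A pseudocount of 5 left 151 transient falls. With the replicate block, 2568 genes were called, 1313 higher and 1255 lower. A fit of only the HL60 and HL15 libraries, whose spread is then not pooled with that of other conditions, called 2092 genes, 1039 higher and 1053 lower. Correlations of same-numbered libraries' deviations were 0.023, -0.102 and 0.103, so the numbers were not taken as pairs. None of the 162 called named genes changed sign without 1 HL60 or HL15 library, whereas some uncalled ones did, such as HSP17.6II (0.37, with a lowest value of -0.06). Of these 162, 131 kept their call without any 1 HL60 or HL15 library and 31 lost it without at least 1. The cause of these shifts was not tested.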
